A study of Capra hircus with 20 samples.

Results

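The subcutaneous arm of this goat cell culture study was examined here on its own, as the change between preadipocytes and the same kind of cells after induction. Its members were 10 of the 20 RNA-seq libraries, chosen by their labels: 5 libraries of subcutaneous preadipocytes at day 0 (SPA) and 5 of subcutaneous cells after 3 days of induction (SA). Per the study's methods, the cells came from the subcutaneous fat of 5 male Jianzhou Daer goats aged 7 days, were isolated with collagenase, were used at passage 3, and were induced in serum-containing medium with oleic acid. All groups were unmodified primary cultures. None of the 20 libraries came from cells kept for 3 days without induction. The effects of induction and of time in culture therefore cannot be told apart. The other 10 libraries were 5 of intramuscular preadipocytes (IMPA, day 0) and 5 of induced intramuscular cells (IMA, day 3). Per the same methods, their cells came from the longissimus dorsi of the same goats. These libraries were used only to ask whether a change differed between the cell types.

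Fat cells arise from stromal precursors that carry PDGFRA and make abundant collagen. In culture, differentiation usually begins with the factors CEBPB and CEBPD, which are followed by PPARG and CEBPA, the factors that switch on lipid uptake, storage and adipokine genes. Oleic acid is itself a ligand for lipid-sensing receptors and can be stored directly as triglyceride in lipid droplets, which are coated by perilipins such as PLIN2.

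Expression was given as FPKM, fragments scaled to transcript length and to the mapped fragments of the library, summed over the transcripts of a gene. The test covered genes that averaged 1 FPKM or more across these 10 libraries, namely 11049 genes and 1695 long non-coding RNA (lncRNA) transcripts. Fold changes are on the log2(FPKM + 1) scale, which understates the change of genes with few FPKM, and are written as SA over SPA. A gene was called changed at an adjusted p under 0.05 by limma. The libraries of a stage were alike, with between 10931 and 11023 genes at 1 FPKM or more in each, and the summed FPKM of the mRNA table was higher in every SA library (390313 to 413880) than in every SPA library (373889 to 387223). Read counts per gene were not used here, so the number of reads behind each value is unknown. The study lists the mapped reads of each library, and every SA library except SA2 had fewer than every SPA library. Libraries SPA1 and SA5 lost a smaller share of reads in filtering than the rest, according to the study's read table, and the results without them are given below. That table also lists a lower mapped share in every SA than in every SPA library, so the effects of mapped share and of stage cannot be told apart. From IMPA to IMA libraries the mapped share fell much further. A difference between the cell types in their change is therefore confounded with mapped share as well. In bulk cultures, fewer cells of a kind and less RNA per cell cannot be told apart either.

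After 3 days, 2829 genes (25.6% of those tested) were up-regulated and 2910 (26.3%) were down-regulated. The number of rises and falls was thus close, but large changes were mostly rises: 281 genes rose and 80 fell by at least 2-fold on the log2(FPKM + 1) scale. Of the 281 risers, 150 belonged to the lists of cell cycle genes, and none of the 80 fallers did. Scaling each library to the same mRNA sum moved the balance to 2218 genes up and 3948 down, a share of rises of 36.0% against 49.3% in the reported fit, so small changes of one sign depend on that choice. The median log2 fold change of all genes was −0.01.

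The cell cycle lists give the scale for the rest. Of 136 mitosis and spindle genes tested, 134 rose, with a median log2 fold change of 1.41, and of 89 genes of DNA replication and repair, 85 rose, with a median of 0.97. No member of either list fell. Of 26 G1 cyclins, CDKs, inhibitors and E2F factors, 15 rose and 3 fell, with a median of 0.23. Beyond these cell cycle lists, and among lists with at least 8 members tested, the highest medians were those of serine synthesis and the ATF4 response (0.43), cytosolic aminoacyl-tRNA synthetases (0.29), p53 target genes (0.21) and cytosolic ribosomal proteins (0.21). The lowest medians among lists of that size were those of interferon-stimulated genes (−0.65), stromal progenitor markers (−0.47), cholesterol synthesis (−0.44) and glycolysis (−0.44). Next came adipogenic transcription factors (−0.36), glucocorticoid-induced genes (−0.35), hypoxia-induced genes (−0.35) and BMP signalling with its antagonists (−0.32). The plot of list medians sets these side by side.

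**Figure D1:**
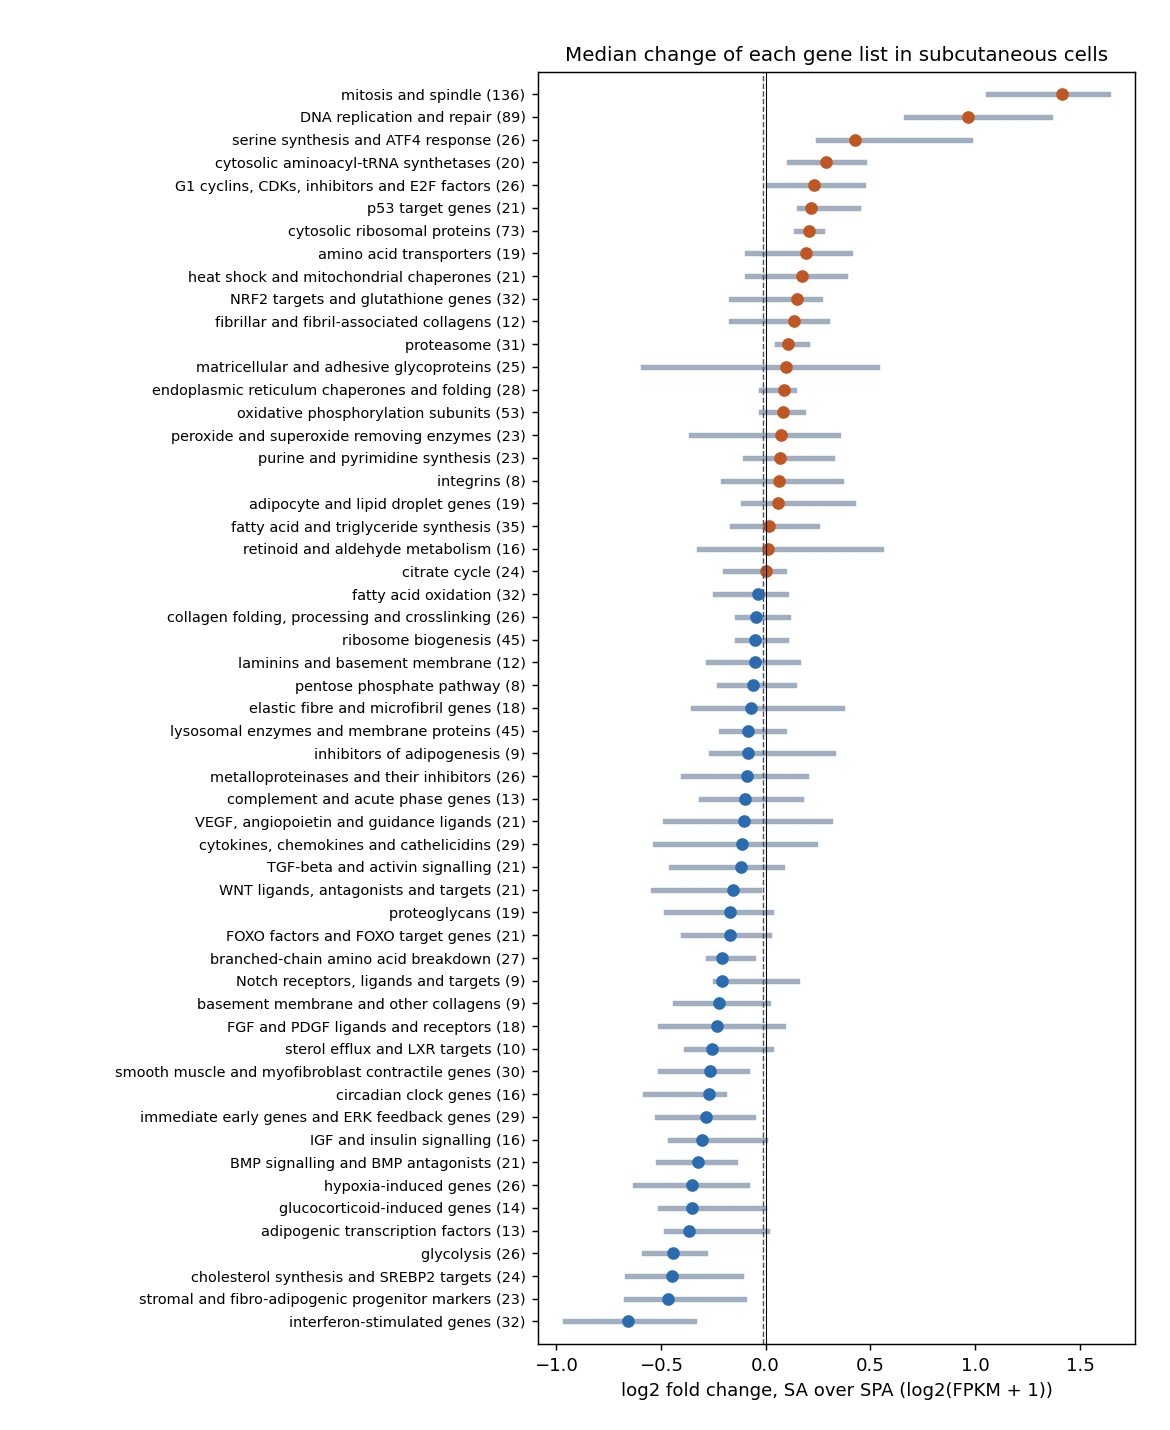
Median log2 fold change (SA over SPA, on the log2(FPKM + 1) scale) of each gene list with at least 8 members tested, with the number tested in brackets. Points are medians, grey bars span the middle 50% of the members, and the dashed line is the median of all genes (−0.01); mitosis and spindle genes stand at 1.41 and interferon-stimulated genes at −0.65.

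The largest single falls outside the cell cycle lists began with S100A4, a calcium-binding protein of fibroblasts and motile cells. Its level was 395, 464, 442, 543 and 509 FPKM in SPA1 to SPA5 and 75, 46.5, 52.8, 69.4 and 74.6 FPKM in SA1 to SA5. The groups did not overlap, and the log2 fold change was −2.88 (SE 0.14, adjusted p = 9.16e-09). TMEM255A fell from a mean of 9.75 to 1.04 FPKM, RRAD, a small GTPase-like protein, from 40.9 to 8.33 FPKM, and ADIRF, named as an adipogenesis regulatory factor, from 20.4 to 3.80 FPKM. VGF, a secreted neuropeptide precursor, fell by 1.92 on the log2 scale. CBLN2, ACHE (acetylcholinesterase), the cartilage protein CILP and GAS1, a growth arrest-specific membrane protein, fell by 1.79, 1.78, 1.76 and 1.70. EGR1, an immediate early transcription factor, was at 4.81, 5.70, 6.15, 5.94 and 5.95 FPKM at day 0 and at 0.92, 0.85, 0.84, 0.85 and 0.62 FPKM at day 3. HMOX1, the heme-degrading oxygenase, went from a mean of 65.9 to 19.8 FPKM (log2 fold change −1.69). The unnamed genes LOC102190983 (98.2 to 18.0 FPKM) and LOC102189017 (5.38 to 0.82 FPKM) were also among the 15 largest falls.

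Of the 15 largest rises outside the cell cycle lists, 14 carried an LOC identifier with no gene name in the files, led by LOC102180554 (16 to 152 FPKM) and LOC102181083 (11.3 to 98.4 FPKM). Among all genes that rose by at least 2-fold, 57 were unnamed, and 45 of these lay directly beside another such riser in the order of protein-coding genes of the RefSeq ARS1.2 annotation, against 10 of the 221 named risers placed there. Genes in such runs may share reads with near-identical neighbours, so their separate levels are uncertain. The named gene with the largest rise was DHRS3, an enzyme that reduces retinal to retinol. It was at 5.53, 4.87, 5.68, 6.19 and 5.77 FPKM in SPA and at 34.3, 31.7, 33.1, 32.9 and 30.8 FPKM in SA (log2 fold change 2.35, SE 0.05, adjusted p = 7.89e-11). Next came CRABP1, the cellular retinoic acid-binding protein, at 2.05, 2.52, 2.58, 2.60 and 2.64 FPKM against 12.8, 16.3, 17.6, 13.1 and 14.8 FPKM (log2 fold change 2.19). Apart from DHRS3, the named risers in this paragraph were singled out after their values were seen: CRABP1, MAP28, NEIL3, a DNA glycosylase (1.69 to 9.41 FPKM), TCF19 (1.35 to 7.92 FPKM), CENPT, a centromere protein (1.55 to 8.41 FPKM), LXN, a carboxypeptidase inhibitor (2.05 to 10.1 FPKM), and MXD3, a MAX-binding factor (2.71 to 12.1 FPKM). The cathelicidin MAP28, an antimicrobial peptide precursor, was at 62.0, 65.9, 64.5, 60.6 and 67.5 FPKM before induction and at 238, 254, 262, 231 and 236 FPKM after it (log2 fold change 1.91). The cell cycle lists do not hold every gene of cell division, CENPT being 1 left out. A riser outside them is thus not always outside the cell cycle.

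The label of preadipocytes was checked against marker lists. Stromal genes were abundant at both stages, with DCN (decorin) at a mean of 5441 FPKM in SPA and 4120 FPKM in SA and VIM (vimentin) at 3041 and 2071 FPKM. CD34, PI16 and TCF21, markers of adipose progenitors in tissue, averaged 0.39 FPKM or less at either stage. Most markers of other cell types were below 1 FPKM, except on the pericyte list. The single genes named for these types were all below it, and the members that reached it are not reported here. Of 22 skeletal muscle genes measured, 2 reached a mean of 1 FPKM, and the summed level of the list was 9.43 to 31.3 FPKM in SPA and 10.6 to 13.2 FPKM in SA, with MYOD1, MYOG, MYF5 and PAX7 at group means of 0.30 FPKM or less. Of 14 endothelial genes, 2 reached it (8.12 to 9.72 FPKM summed in SPA and 10.9 to 13.0 FPKM in SA, with PECAM1, CDH5 and VWF each at a mean of 0.46 FPKM or less). The macrophage list had 2 of 13 above it (18.3 to 20.4 against 15.1 to 18.1 FPKM summed), and PTPRC and CSF1R had means of 0.04 FPKM or less. Of 14 epithelial and mesothelial genes none reached it (1.5 to 1.76 against 0.67 to 1.20 FPKM summed), of 9 pericyte genes 5 did (40.8 to 44.8 against 25.6 to 28.7 FPKM summed, with RGS5 at 0.03 FPKM or less), of 12 Schwann and melanocyte genes 4 did (56.1 to 58.0 against 39.8 to 41.5 FPKM summed, with SOX10 at 0.01 FPKM), and of 24 bone and cartilage genes 4 did (30.0 to 34.0 against 32.8 to 36.7 FPKM summed).

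Genes that define mature fat cells were scarce in the SA libraries. ADIPOQ (adiponectin) was at 0.50, 0.51, 0.34, 0.25 and 0.50 FPKM in SPA and 0.27, 0.60, 0.15, 0.49 and 0.23 FPKM in SA, and the groups overlapped. PLIN1, the perilipin of mature fat cells, reached at most 0.38 FPKM in SA, and LEP, PLIN4 and LIPE had SA means of 0.00, 0.01 and 0.34 FPKM. FABP4 was not analysed here. PPARG stood below the expression filter, at 0.69, 0.78, 0.68, 0.47 and 0.50 FPKM in SPA and 1.26, 0.86, 1.24, 0.68 and 1.11 FPKM in SA. The groups overlapped, and with the filter lowered to 0.1 FPKM the log2 fold change of PPARG was 0.32 (limma adjusted p = 0.0256). LPL, which releases fatty acids from lipoproteins, was higher in every SA library (1.03 to 1.61 FPKM) than in every SPA library (0.48 to 0.58 FPKM), with a log2 fold change of 0.59 and an adjusted p of 1.85e-04 under the lowered filter. CD36, a fatty acid transporter, went from 0.05 to 0.12 FPKM in SPA to between 0.52 and 1.44 FPKM in SA (log2 fold change 0.84, adjusted p = 1.53e-04 under the same filter).

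The transcription factors of adipogenesis mostly fell. Of 13 tested, 8 fell and 1 rose, with a median log2 fold change of −0.36. CEBPD was at 433, 398, 415, 409 and 413 FPKM in SPA and at 298, 329, 344, 298 and 296 FPKM in SA, which did not overlap (log2 fold change −0.40, SE 0.05). CEBPB fell from a mean of 80.3 to 62.2 FPKM and CEBPA from 5.05 to 3.91 FPKM. The early B-cell factors EBF3 and EBF1 fell by 1.02 and 0.42 on the log2 scale, ZNF395 by 0.93, KLF9 by 0.54 and RXRA, the partner of PPARG, by 0.47. KLF4 was the riser (10.1 to 13.1 FPKM), and SREBF1 was at 2.06 and 2.30 FPKM without passing the test.

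Genes of lipid droplets and fatty acid use moved one by one rather than as lists. The lipid droplet coat PLIN2 was at 257, 264, 259, 250 and 253 FPKM at day 0 and at 380, 403, 420, 402 and 377 FPKM at day 3 (log2 fold change 0.62, SE 0.04, adjusted p = 4.48e-08). ANGPTL4, a secreted inhibitor of lipoprotein lipase, rose from 41.0 to 56.6 FPKM, FABP5, a fatty acid-binding protein, from 18.2 to 25.5 FPKM, and CPT1A, which loads fatty acids into mitochondria, from 26.4 to 34.5 FPKM. PDK4, the kinase that restrains pyruvate oxidation, was at 3.80, 3.92, 3.70, 4.33 and 4.15 FPKM against 9.41, 9.31, 8.4, 9.61 and 8.83 FPKM (log2 fold change 1.02). PLIN2, ANGPTL4 and PDK4 rose less than in intramuscular cells, where their log2 fold changes were 1.74, 1.16 and 2.15 (interaction adjusted p = 1.20e-05, 0.00396 and 1.75e-08). Of 19 adipocyte and lipid droplet genes tested, 6 rose and 2 fell, with a median of 0.06.

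Among 35 genes of fatty acid and triglyceride synthesis, 13 rose and 10 fell, with a median of 0.01. SCD, the desaturase that makes oleate from stearate, was at 8.08, 7.21, 6.52, 8.23 and 8.67 FPKM in SPA and 3.96, 2.76, 3.62, 3.50 and 2.90 FPKM in SA, so that every SA library lay below every SPA library (log2 fold change −1.01, SE 0.09, adjusted p = 2.52e-06). The acyl-CoA synthetases ACSL4 and ACSL1 fell by 0.83 and 0.77 on the log2 scale. The elongase ELOVL6 rose (2.92 to 5.15 FPKM), as did HSD17B12 (18.0 to 26.9 FPKM) and ACACA, the first committed enzyme of fatty acid synthesis, while FASN was at 4.55 and 4.42 FPKM and did not pass the test. DGAT2 averaged 0.59 FPKM or less. In fatty acid oxidation 7 of 32 genes rose and 13 fell, with a median of −0.04: the trifunctional protein subunits HADHA and HADHB fell from 169 to 136 and from 145 to 122 FPKM, and the carnitine carrier SLC25A20 rose from 9.06 to 13.1 FPKM. ACADVL (20.9 and 20.6 FPKM) did not pass the test.

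**Figure D2:**
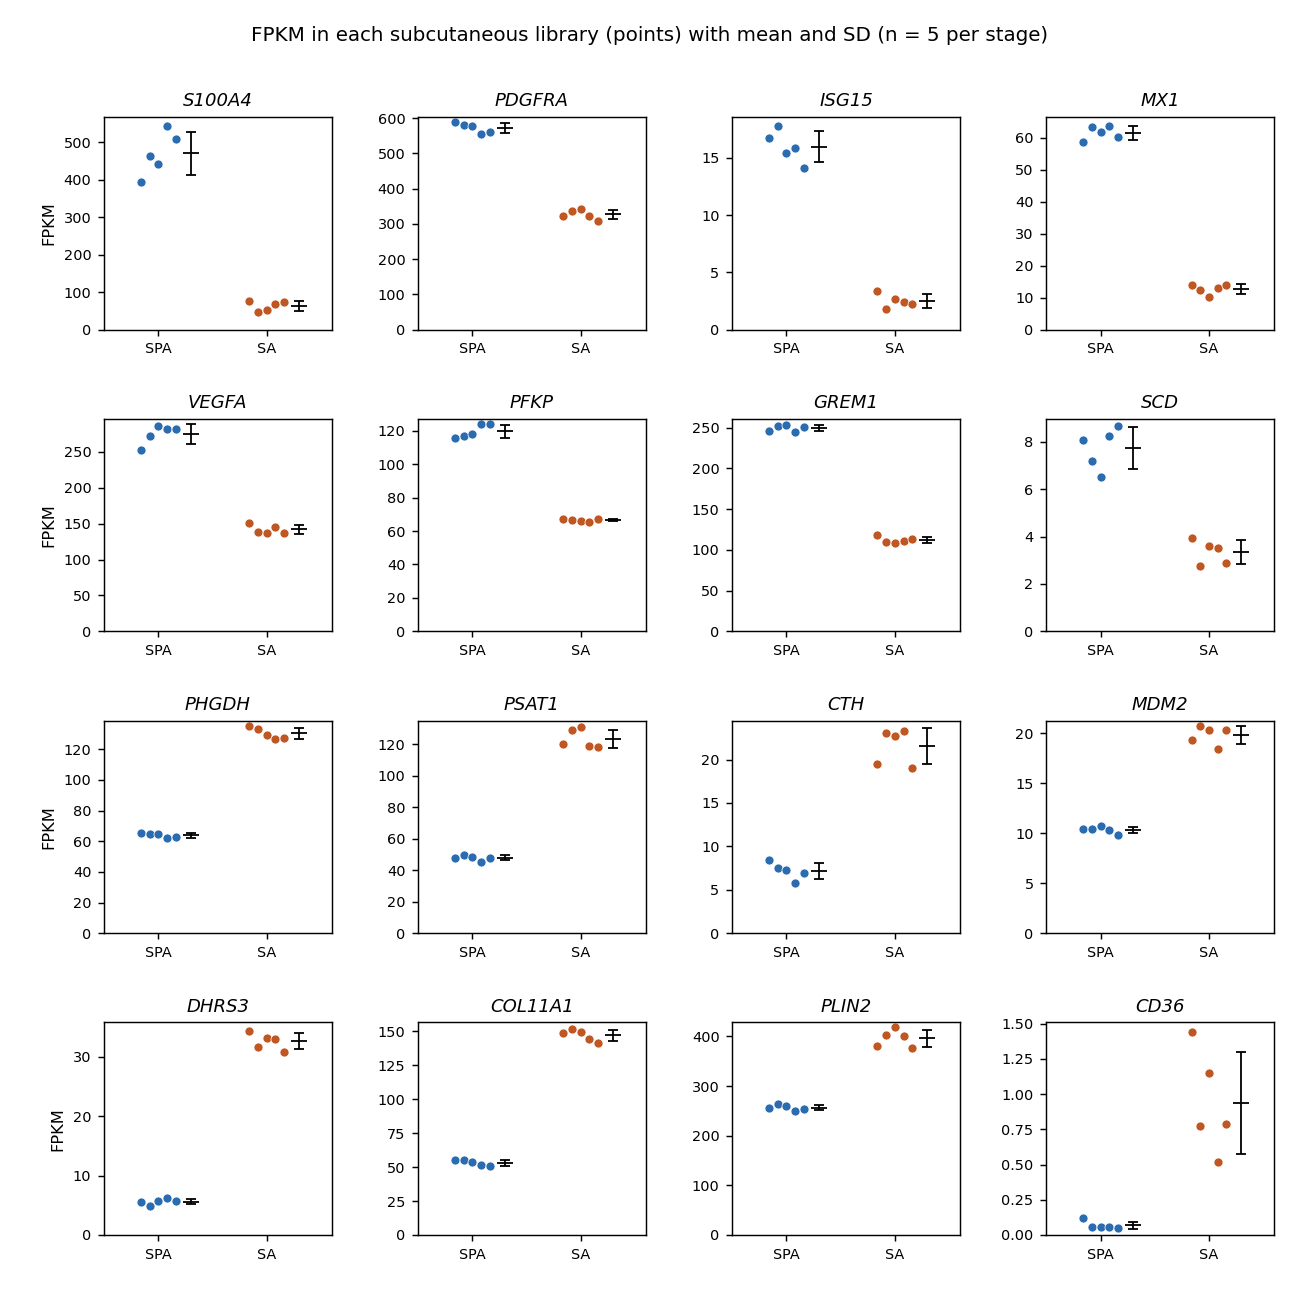
FPKM of 16 genes in each of the 5 SPA libraries (blue) and 5 SA libraries (orange), with the mean and SD beside the points; every axis starts at 0. In each of these genes the stages do not overlap, with the falls (for example S100A4, 395 to 543 FPKM in SPA) in the upper rows and the rises in the lower ones.

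The serine pathway and genes that respond to the transcription factor ATF4 rose together. ATF4 is translated when amino acids are short or the endoplasmic reticulum is stressed, and it turns on amino acid synthesis, amino acid import and tRNA charging. Of 26 genes on this list, 21 rose and 3 fell, with a median log2 fold change of 0.43. The enzymes that make serine from a glycolytic intermediate all rose: PHGDH was at 65.1, 64.9, 64.7, 61.8 and 62.5 FPKM in SPA and 135, 134, 129, 126 and 127 FPKM in SA (log2 fold change 1.02, SE 0.03). PSAT1 was at 47.7, 49.8, 48.6, 45.5 and 47.9 FPKM against 121, 129, 131, 119 and 118 FPKM (1.35, SE 0.04). PSPH went from a mean of 15.5 to 41.3 FPKM (1.37, SE 0.06). For all 3 enzymes the gap between the stages was wider than the spread within either stage.

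Downstream of serine, CTH, which makes cysteine, was at 8.4, 7.49, 7.32, 5.79 and 6.90 FPKM in SPA and at 19.5, 23.0, 22.7, 23.3 and 19 FPKM in SA (log2 fold change 1.46, SE 0.09), and CBS, the enzyme before it, rose from 13.2 to 20.3 FPKM. The folate enzymes MTHFD1, MTHFD2 and SHMT2 rose by log2 fold changes of 0.67, 0.44 and 0.38. ASNS, which makes asparagine, rose from 30.2 to 64.6 FPKM (log2 fold change 1.07), the stress sensor SESN2 from 4.24 to 10.0 FPKM, the pseudokinase TRIB3 from 5.11 to 11.5 FPKM and the glutathione-degrading CHAC1 from 2.62 to 5.52 FPKM. When 1 transcript per gene was used instead of the sum, the call of ASNS was lost (log2 fold change 0.76). The mRNA of ATF4 itself was at 73.6, 81.6, 84.6, 89.2 and 89.5 FPKM in SPA and at 101, 84.0, 77.2, 105 and 102 FPKM in SA, with SA2 and SA3 inside the SPA range, and did not pass the test (log2 fold change 0.15, adjusted p = 0.162). It passed without SA3, at a log2 fold change of 0.22. The list's fallers were GPT2, ALDH18A1 and EIF4EBP1, at log2 fold changes of −0.42, −0.24 and −0.21.

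Charging and import of amino acids followed the same direction. Of 20 cytosolic aminoacyl-tRNA synthetases, 13 rose and 3 fell (median 0.29), led by GARS (35.6 to 64.9 FPKM), WARS (21.5 to 39.3 FPKM) and MARS (28.3 to 45.8 FPKM), the enzymes for glycine, tryptophan and methionine. QARS, KARS and DARS fell by 0.29, 0.17 and 0.15 on the log2 scale. Of 19 amino acid transporters, 10 rose and 3 fell. The cystine importer SLC7A11 was at 39.5, 36.0, 35.3, 34.9 and 35.0 FPKM against 58.6, 64.4, 61.2, 58.2 and 51.9 FPKM (log2 fold change 0.69), its partner SLC3A2 rose from 81.9 to 119 FPKM, and the cationic transporter SLC7A3 from 1.57 to 6.58 FPKM. SLC7A5 was at 12.5 and 13.0 FPKM and did not pass.

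These rises differed from the intramuscular cells, in which the mapped share also fell further between the stages. The interaction of stage and cell type passed for 54.5% of all genes tested, and it passed for 24 of the 26 serine and ATF4 genes, all 24 with the more positive change in subcutaneous cells. In intramuscular cells the log2 fold changes of PHGDH, PSAT1, PSPH and CTH were −0.55, −0.66, −0.58 and −0.87. The interaction also passed for 19 of the 20 tRNA synthetases, with 17 more positive in subcutaneous cells.

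**Figure D3:**
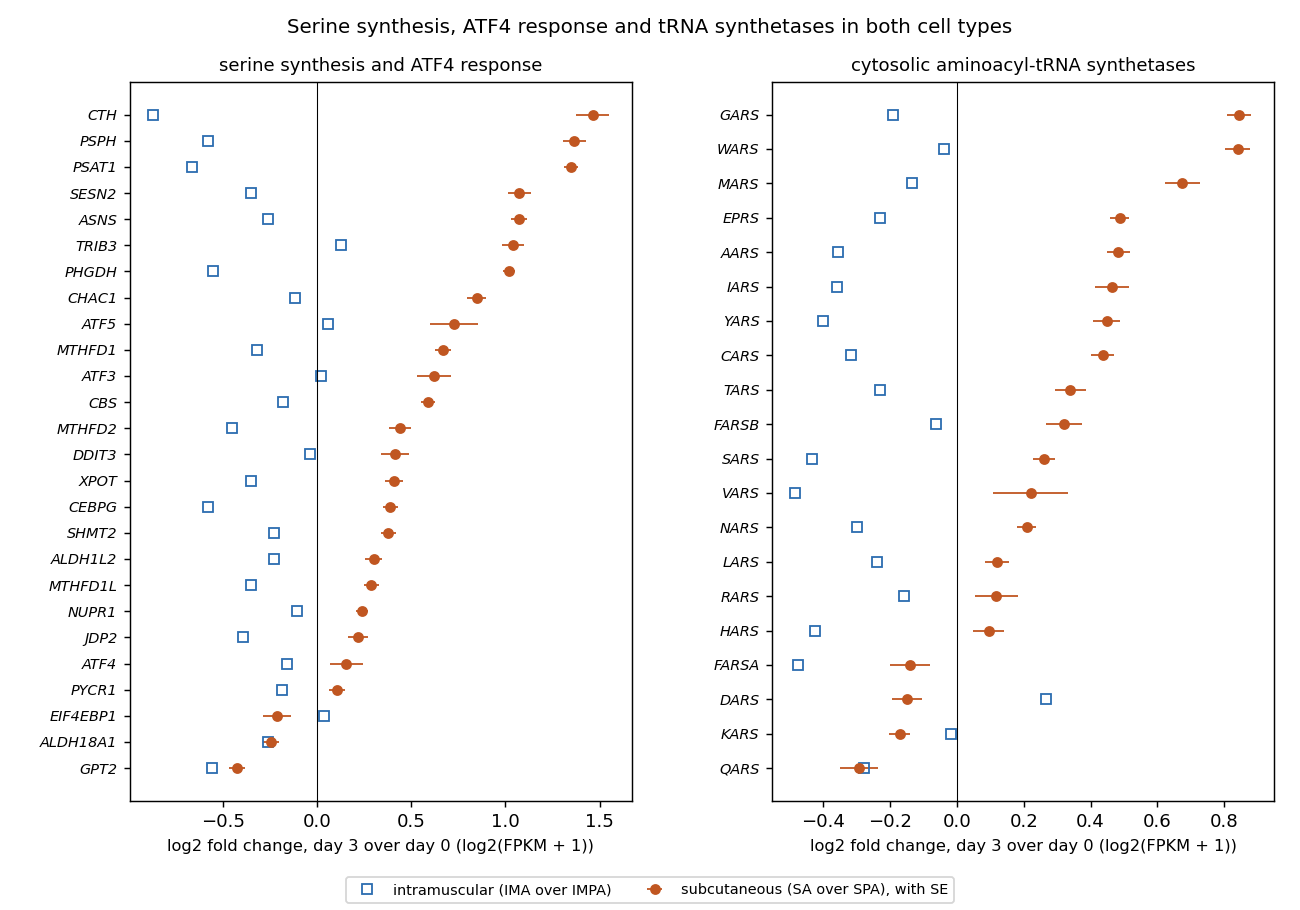
Log2 fold change at day 3 over day 0 of the genes of serine synthesis and the ATF4 response (left) and of the cytosolic tRNA synthetases (right), on the log2(FPKM + 1) scale; filled points are subcutaneous cells with their SE and open squares are intramuscular cells, drawn without an error. PHGDH, PSAT1, PSPH and CTH lie right of 0 in subcutaneous and left of 0 in intramuscular cells.

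Smaller rises covered some other lists, but not all growth genes: of 45 ribosome biogenesis genes, 10 rose and 11 fell (median −0.05). Of 73 cytosolic ribosomal proteins, 63 rose and none fell, with a median log2 fold change of 0.21. Their mean log2(FPKM + 1) was 9.93 to 10.0 in SPA and 10.1 to 10.3 in SA, without overlap, and RPS29 (1251 to 1745 FPKM) and RPS19 (1209 to 1623 FPKM) rose most. Under quantile normalization 37 of the 73 rose, with a median of 0.08. Of 31 proteasome subunits, 16 rose and 1 fell (median 0.11), with PSMA7 first (85.4 to 119 FPKM), and 10 of them rose when libraries were scaled to the same mRNA sum. In oxidative phosphorylation 20 of 53 subunits rose and 2 fell (median 0.08), and with equal mRNA sums 14 rose and the median was 0.01. Under quantile normalization that median was 0.03. Among 21 chaperones 11 rose and 3 fell, with the mitochondrial HSPA9 (105 to 206 FPKM) and the cytosolic HSP90AA1 (258 to 367 FPKM) among the risers and the small heat shock protein HSPB1 (45.9 to 32.4 FPKM) among the fallers.

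Of 21 p53 target genes 14 rose and 1 fell (median 0.21). MDM2, the ligase that degrades p53, was at 10.4, 10.4, 10.7, 10.4 and 9.85 FPKM in SPA and 19.4, 20.7, 20.3, 18.5 and 20.3 FPKM in SA (log2 fold change 0.88, SE 0.04, adjusted p = 6.19e-09). GDF15, a stress-induced cytokine, rose from 4.76 to 9.29 FPKM, PLK2 from 8.02 to 14.3 FPKM and ZMAT3 from 37.6 to 56.0 FPKM. CDKN1A, the cell cycle inhibitor, rose less (73.3 to 85.3 FPKM, log2 fold change 0.21) and rose by 1.17 in intramuscular cells (interaction adjusted p = 7.95e-11). TIGAR fell from 5.63 to 4.57 FPKM. Of 32 NRF2 targets and glutathione genes 15 rose and 8 fell: NQO1 and TXNRD1 rose by 0.15 each, GCLM (27.9 and 27.5 FPKM) did not pass, and FTL rose (646 to 922 FPKM) where FTH1, the other ferritin chain, fell (1035 to 703 FPKM).

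Interferon-stimulated genes fell as a group. These genes respond to interferons through a complex that holds STAT2 and IRF9 and restrain viruses. Of 32 tested, 26 fell and 1 rose, with a median log2 fold change of −0.65. The ubiquitin-like ISG15 was at 16.7, 17.8, 15.4, 15.8 and 14.1 FPKM in SPA and 3.35, 1.79, 2.70, 2.36 and 2.19 FPKM in SA (log2 fold change −2.30, SE 0.11, adjusted p = 7.14e-09). The antiviral GTPase MX1 was at 58.7, 63.3, 61.7, 63.8 and 60.2 FPKM against 13.9, 12.3, 10.3, 12.9 and 14.0 FPKM (−2.20, SE 0.07). For both genes every SA library lay far below every SPA library.

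IFIT2 and IFIT3 fell by 1.40 and 1.24 on the log2 scale. DDX58, the RNA sensor RIG-I, fell by 1.28, and IFI44 and IFI44L by 1.25 and 1.21. Of the signalling complex, IRF9 went from 24.2 to 10.6 FPKM and STAT2 from 20.7 to 13.8 FPKM, and both passed the test. B2M, the light chain of class I MHC, was the riser (431 to 493 FPKM). IFI6, IRF1 and TAP1 were at 137 and 128, 11.6 and 11.1, and 4.60 and 4.55 FPKM and did not pass. The interferons' target MX2 was under the filter, at a mean of 1.53 in SPA and 0.27 FPKM in SA. In intramuscular cells the list's median was −0.42. The interaction passed for 13 of the 32 genes, a smaller share than the 54.5% of all genes tested. ISG15 fell more in subcutaneous cells (interaction adjusted p = 0.00628), and for MX1 (−1.86 in intramuscular cells) no difference was called (adjusted p = 0.160).

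Glycolysis was down-regulated along its length. Glucose enters through SLC2A transporters, hexokinase and phosphofructokinase commit it to the pathway, and lactate leaves through SLC16A3. Of 26 genes tested, 21 fell and 3 rose, with a median log2 fold change of −0.44. The glucose transporters SLC2A3 and SLC2A1 fell from 100.3 to 69.8 and from 32.5 to 26.0 FPKM. HK2 was at 11.5, 15.2, 15, 15.3 and 15.3 FPKM in SPA, lowest in SPA1, and at 10.2, 8.72, 7.78, 9.32 and 10.4 FPKM in SA (−0.59, SE 0.09). PFKP was at 116, 117, 118, 124 and 124 FPKM against 67.5, 66.6, 66.2, 65.6 and 67.0 FPKM (−0.84, SE 0.03, adjusted p = 9.52e-10), and PFKL and PFKFB3 fell by 0.71 and 0.75.

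In the later steps of the pathway, ALDOA fell from 982 to 711 FPKM, TPI1 from 423 to 304 FPKM, GAPDH from 1639 to 1226 FPKM and ENO2 from 21.1 to 12.9 FPKM. PGK1 was at 580, 617, 597, 588 and 611 FPKM before and at 397, 358, 381, 406 and 403 FPKM after induction (−0.62, SE 0.04). PKM fell from 799 to 572 FPKM. The lactate exporter SLC16A3 was at 27.8, 27.6, 26.7, 30.5 and 27.4 FPKM against 14.8, 14.8, 14.5, 14.6 and 16.5 FPKM (−0.85, SE 0.05). The risers were SLC16A1, a monocarboxylate carrier (54.1 to 73.4 FPKM), LDHB, which favours lactate oxidation (235 to 278 FPKM), and GPD1L (1.11 to 1.94 FPKM). LDHA was not analysed here.

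Hypoxia-induced genes, which overlap with glycolysis in their control by HIF factors, fell as well. Of 26 tested, 17 fell and 3 rose, with a median of −0.35. VEGFA, the angiogenic growth factor, was at 252, 272, 286, 282 and 282 FPKM in SPA and 152, 139, 137, 146 and 137 FPKM in SA (log2 fold change −0.95, SE 0.04, adjusted p = 7.02e-09). STC1, a secreted glycoprotein, was at 6.08, 5.94, 6.90, 7 and 7.21 FPKM against 1.15, 1.31, 1.31, 1.31 and 1.17 FPKM (−1.76, SE 0.06). The mitophagy receptor BNIP3 fell from 106 to 51.9 FPKM, ANKRD37 from 19.2 to 7.33 FPKM, the vasodilator ADM from 798 to 466 FPKM and NDRG1 from 86.8 to 55.4 FPKM. Of the HIF subunits, HIF1A fell from 137 to 104 FPKM, and EPAS1 (HIF-2 alpha) was at 248, 322, 334, 358 and 327 FPKM against 198, 137, 120, 191 and 184 FPKM, with SPA1 nearest to the SA range and SA2 and SA3 lowest. ANGPTL4, STC2 and HIGD1A rose.

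Both lists differed from the intramuscular cells, where their medians were 0.14 and 0.45. The unequal drop in mapped share applies here too. The interaction passed for 25 of the 26 glycolysis genes, 21 of them with the more negative change in subcutaneous cells. It passed for 19 of the 26 hypoxia genes, 18 of them more negative, and for 54.5% of all genes tested. In intramuscular cells the log2 fold changes of PGK1, SLC16A3, VEGFA and BNIP3 were 0.58, 0.91, 0.54 and 0.71 (interaction adjusted p = 6.35e-13, 9.81e-08, 9.26e-08 and 1.53e-09). ADM and EPAS1 had negative changes in both cell types.

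**Figure D4:**
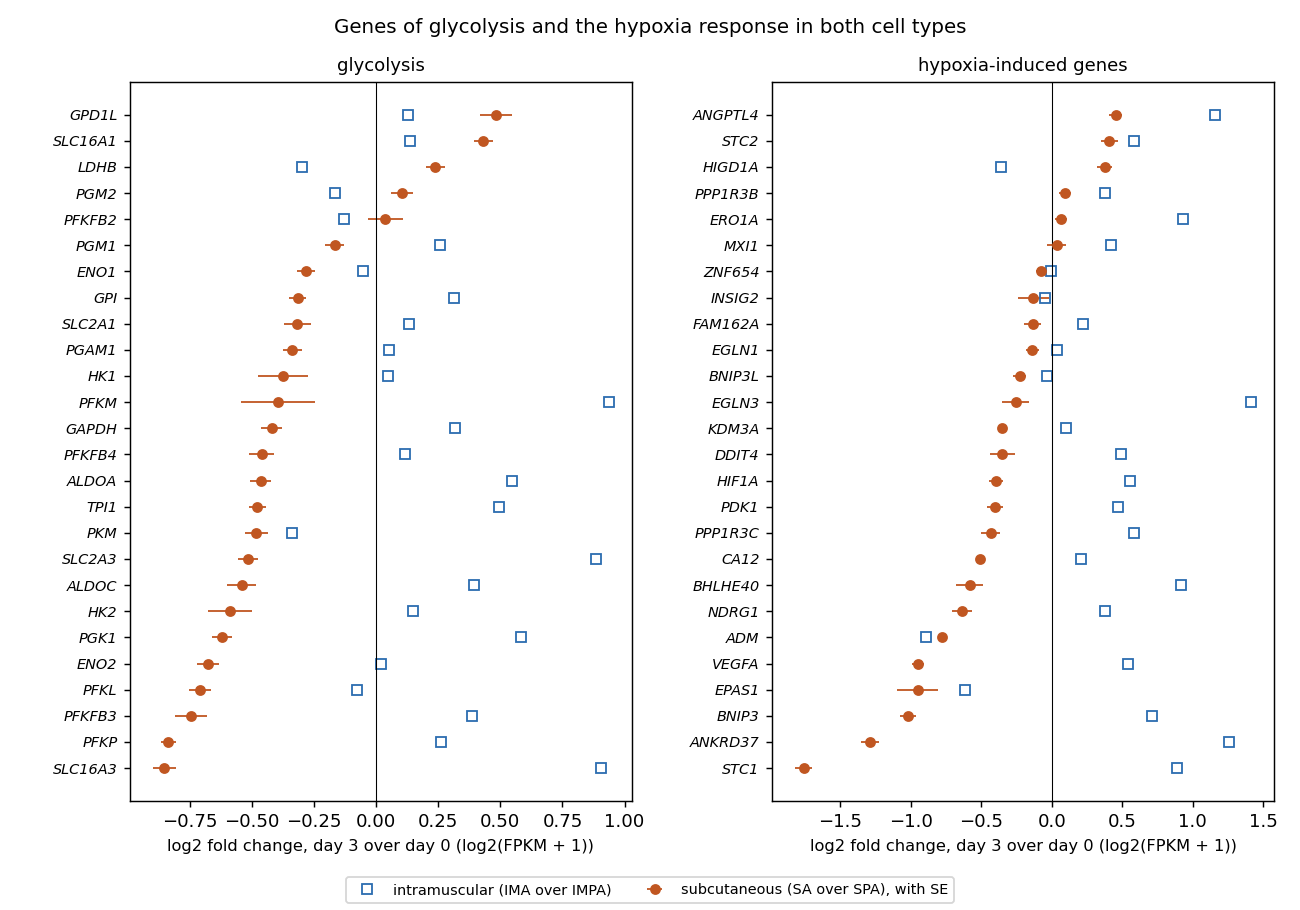
Log2 fold change at day 3 over day 0 of the glycolysis genes (left) and the hypoxia-induced genes (right), on the log2(FPKM + 1) scale; filled points are subcutaneous cells with their SE and open squares are intramuscular cells, drawn without an error. Most filled points lie left of 0 and most open squares right of it, with list medians of −0.44 and 0.14 for glycolysis.

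Cholesterol synthesis and other targets of SREBP2, the factor that responds to low membrane sterol, fell: 17 of 24 genes fell and 3 rose, with a median of −0.44. HMGCS1, at the entry of the pathway, was at 38, 39.4, 37.7, 38.9 and 40.0 FPKM in SPA and 22.0, 23.7, 25.3, 23.3 and 21.7 FPKM in SA (log2 fold change −0.72, SE 0.04, adjusted p = 6.87e-08). SQLE, the squalene epoxidase, fell from 13.5 to 7.93 FPKM, the later enzymes MSMO1, EBP and DHCR7 by 0.77, 0.86 and 0.73 on the log2 scale, and SREBF2, which encodes SREBP2, from 5.24 to 3.29 FPKM. INSIG1, the sterol-regulated brake on SREBP processing, was at 5.27, 6.65, 5.73, 6.89 and 7.45 FPKM against 2.58, 2.81, 2.44, 3.13 and 3.15 FPKM (−0.95, SE 0.09).

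Among the risers, LBR, a sterol reductase of the nuclear envelope, went from 14.3 to 24.2 FPKM. The interaction passed for 12 of the 24 genes, against 54.5% of all genes tested. In intramuscular cells the median of the list was −0.61. HMGCS1 changed by −0.75 there (interaction adjusted p = 0.864), and SQLE by −1.28, a larger fall than in subcutaneous cells (interaction adjusted p = 3.72e-04).

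Stromal identity genes fell with S100A4: of 23 progenitor markers tested, 16 fell and 4 rose (median −0.47). PDGFRA was at 589, 581, 578, 554 and 559 FPKM in SPA and 323, 336, 343, 322 and 309 FPKM in SA (log2 fold change −0.81, SE 0.04, adjusted p = 5.15e-09). The surface glycoprotein THY1 was at 37.6, 35.4, 40.9, 36.0 and 36.9 FPKM against 14.2, 17.0, 15.1, 16.3 and 15.4 FPKM (−1.21). F3, tissue factor, fell by 1.23, ISLR by 0.79, LY6E by 0.78 and DPP4 by 0.47. ITGB1, ALCAM, FAP and TWIST1 rose, with FAP, a fibroblast surface protease, at 99.9 and 123 FPKM. Of 30 contractile genes 17 fell and 4 rose (median −0.27): PALLD and CSRP1 fell by 0.80 and 0.79, while ACTA2, smooth muscle actin, was at 94.2, 85.6, 90.4, 89.0 and 85.0 FPKM in SPA and 141, 137, 130, 138 and 139 FPKM in SA (0.62, SE 0.04). TAGLN (164 and 159 FPKM) and CNN1 (7.43 and 7.04 FPKM) did not pass.

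Matrix genes changed in both directions. Of 12 fibrillar and fibril-associated collagens, 5 rose and 3 fell (median 0.14). COL11A1, a minor fibrillar collagen, was at 55.4, 55.0, 53.8, 51.4 and 50.7 FPKM in SPA and 149, 152, 149, 144 and 141 FPKM in SA (log2 fold change 1.45, SE 0.04, adjusted p = 9.45e-11). COL8A1 rose from 18.7 to 59.4 FPKM and the proteoglycan SPOCK1 from 1.78 to 8.09 FPKM, and SPOCK1 fell by 1.18 in intramuscular cells (interaction adjusted p = 6.50e-15). SPARC, a collagen chaperone, rose from 1031 to 1553 FPKM, ELN, elastin, from 15.1 to 39.3 FPKM and the inhibitor TIMP1 from 2684 to 4291 FPKM. COL27A1 and COL14A1 fell by 1.17 and 0.86, MMP1 by 1.26 and TGFBI from 780 to 436 FPKM, where TGFBI rose by 0.77 in intramuscular cells (interaction adjusted p = 2.26e-14). COL3A1 rose by 0.21, and COL1A2 (1488, 1864, 1842, 2025 and 1831 FPKM against 2402, 1899, 1819, 2383 and 2427 FPKM) overlapped between stages and lost its call (adjusted p = 0.0464) in 17 of the 22 alternative analyses. COL1A1 (255 and 335 FPKM) did not pass.

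Genes of BMP signalling and genes of BMP antagonists fell together. BMPs signal through SMAD1, SMAD5 and SMAD9 to induce the ID genes, and extracellular antagonists such as GREM1 and NOG hold them back. Of 21 genes tested, 17 fell and none rose (median −0.32). The list pools antagonists with ligands and targets, so this count gives no direction of signalling, which was not tested. The antagonist GREM1 was at 246, 252, 254, 245 and 251 FPKM in SPA and 118, 109, 109, 110 and 113 FPKM in SA (log2 fold change −1.15, SE 0.03, adjusted p = 1.59e-10), and NOG fell from 12 to 6.99 FPKM. Among targets, ID1 was at 334, 393, 409, 423 and 427 FPKM against 245, 191, 222, 246 and 258 FPKM (−0.77), SMAD6 fell by 0.66, MSX2 by 0.69 and ID3 from 467 to 396 FPKM. The ligand BMP4 (2.52 and 1.93 FPKM) overlapped between stages, and its call (adjusted p = 0.0452) was lost in 14 of 22 alternative analyses.

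Other signalling lists leaned downward. IGFBP5 was at 240, 298, 314, 352 and 329 FPKM in SPA, lowest in SPA1, and at 149, 117, 109, 154 and 144 FPKM in SA (−1.18, SE 0.12), and IGF1, IRS1 and IGF1R fell by 0.31, 0.61 and 0.43. Of 16 IGF and insulin genes 9 fell and 2 rose. TGFB3, a TGF-beta ligand, went from 22.7 to 11 FPKM, while FST, an activin antagonist, rose from 5.68 to 13.9 FPKM. FGF7 fell from 276 to 180 FPKM and FGF2 rose from 13.8 to 29.1 FPKM. Of 29 immediate early and ERK feedback genes 17 fell and 5 rose, with FOSL2 and JUN falling by 0.87 and 0.82 and FOS by 0.52, and DUSP6 (3.48 and 3.41 FPKM) did not pass. Among glucocorticoid-induced genes 9 of 14 fell and 3 rose, and the risers included TSC22D3 (4.33 to 9.18 FPKM) and FKBP5 (4.12 to 4.93 FPKM).

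Of 16 circadian clock genes 12 fell and none rose (median −0.27). The activator ARNTL was at 17.8, 17.6, 17.0, 17.1 and 16.6 FPKM in SPA and 10.8, 12.7, 11.8, 10.2 and 10.8 FPKM in SA (−0.58, SE 0.05). The output factor DBP fell from 5.90 to 3.31 FPKM, NR1D1 from 1.56 to 0.83 FPKM and PER2 from 1.48 to 1.07 FPKM. NR1D1 and PER2 repress the activator, and each stage was sampled at a single time. In intramuscular cells ARNTL and DBP changed by −0.05 and 0.32 (interaction adjusted p = 1.51e-05 and 7.11e-07).

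Inflammatory genes were split. PTGS2 (cyclooxygenase-2) was at 62.3, 58.7, 61.8, 64.4 and 60.4 FPKM in SPA and 24.6, 24.2, 23.5, 25.7 and 27.0 FPKM in SA (−1.27, SE 0.04, adjusted p = 4.88e-10), and SOCS3 and the chemokine CXCL12 fell by 1.44 and 0.87. CCL20 rose from 24.9 to 67.3 FPKM, CXCL8 from 258 to 390 FPKM and IL6 from 11.3 to 17.9 FPKM. Of 29 such genes 8 rose and 14 fell. Among enzymes that remove peroxide and superoxide, SOD2 fell from 362 to 153 FPKM and PRDX1 rose from 1375 to 2131 FPKM. ALDH2, the mitochondrial aldehyde dehydrogenase, was at 110, 141, 145, 157 and 157 FPKM against 65.9, 46.1, 46.2, 66.3 and 68.2 FPKM (−1.27, SE 0.13). In retinoid metabolism, RDH10 rose with DHRS3 and CRABP1 (log2 fold change 0.80), and the receptors RARA, RARB and RARG fell by 0.46, 0.29 and 0.49. RBP4 (32.2 and 32.5 FPKM) did not pass.

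Several further lists had medians between −0.25 and 0.09. Branched-chain amino acid breakdown had 14 of 27 genes lower and 4 higher, sterol efflux and LXR targets 6 of 10 lower and 2 higher, and WNT genes 11 of 21 lower and 2 higher, with FZD4 and LRP6 falling by 1.14 and 0.90. FOXO targets had 10 of 21 lower and 4 higher, and proteoglycans 10 of 19 lower and 4 higher. FGF and PDGF genes had 11 of 18 lower and 4 higher. Of all genes tested, 26.3% were lower and 25.6% higher. Lysosomal genes were divided, with 10 of 45 higher and 13 lower, although the cathepsin CTSL fell from 14.6 to 5.65 FPKM. In the citrate cycle 4 of 24 genes rose and 7 fell, in ribosome biogenesis 10 of 45 rose and 11 fell, in purine and pyrimidine synthesis 10 of 23 rose and 4 fell, and among endoplasmic reticulum chaperones 8 of 28 rose and 4 fell.

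Of 1695 lncRNA transcripts tested, 511 rose (30.1%) and 121 fell (7.14%). Most of the excess of rises lay in transcripts assembled within introns, of which 394 of 1066 rose (37.0%) and 30 fell (2.81%). Annotated lncRNAs were more even, with 48 of 358 higher (13.4%) and 64 lower (17.9%), and of 112 intergenic transcripts 27 rose (24.1%) and 13 fell (11.6%). The transcript with the largest rise, LNC_009462, varied widely within each stage, at 0.00, 0.02, 0.00, 2.17 and 0.89 FPKM in SPA and 16.1, 4.38, 3.32, 9.39 and 2.87 FPKM in SA (log2 fold change 2.27, SE 0.45, adjusted p = 0.00128). Its SPA mean rested mostly on SPA4, the groups did not overlap, and without SPA4 its log2 fold change was 2.56. The next largest rises were XR_001297370.2 (3.19 to 14.1 FPKM), LNC_010194 (1.10 to 6.12 FPKM) and LNC_000632 (0.89 to 4.32 FPKM). The largest falls were LNC_001452 (11.9 to 1.47 FPKM), XR_309827.3 (74.5 to 37.0 FPKM), LNC_011377 (6.32 to 3.19 FPKM) and LNC_007993 (3.26 to 1.42 FPKM). A single assembled transcript, LNC_010228, held 23.6 to 29.1% of the summed FPKM of each library.

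The list medians kept their sign when libraries SPA1 and SA5 were left out, except for the citrate cycle (0.00106 with all libraries and −0.00342 without both) and retinoid metabolism (0.01 and −0.01). Without both, 2848 genes rose and 2731 fell, and 5157 of the 5739 genes called in all 10 libraries were called again. The medians over the other 8 libraries were −0.63 for interferon-stimulated genes, −0.47 for glycolysis, −0.35 for hypoxia-induced genes, −0.39 for cholesterol synthesis, −0.34 for BMP signalling, 0.50 for serine synthesis and the ATF4 response, 0.31 for tRNA synthetases and 0.25 for ribosomal proteins. In the same 8 libraries 24 interferon-stimulated genes and 21 glycolysis genes fell, and 21 serine and ATF4 genes rose. The single difference of SA5 minus SPA1, which has no replicate, gave medians of −0.67 for interferon-stimulated genes, −0.38 for glycolysis and 0.41 for serine synthesis and the ATF4 response, but 0.07 for ribosomal proteins and 0.00 for oxidative phosphorylation.

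**Figure D5:**
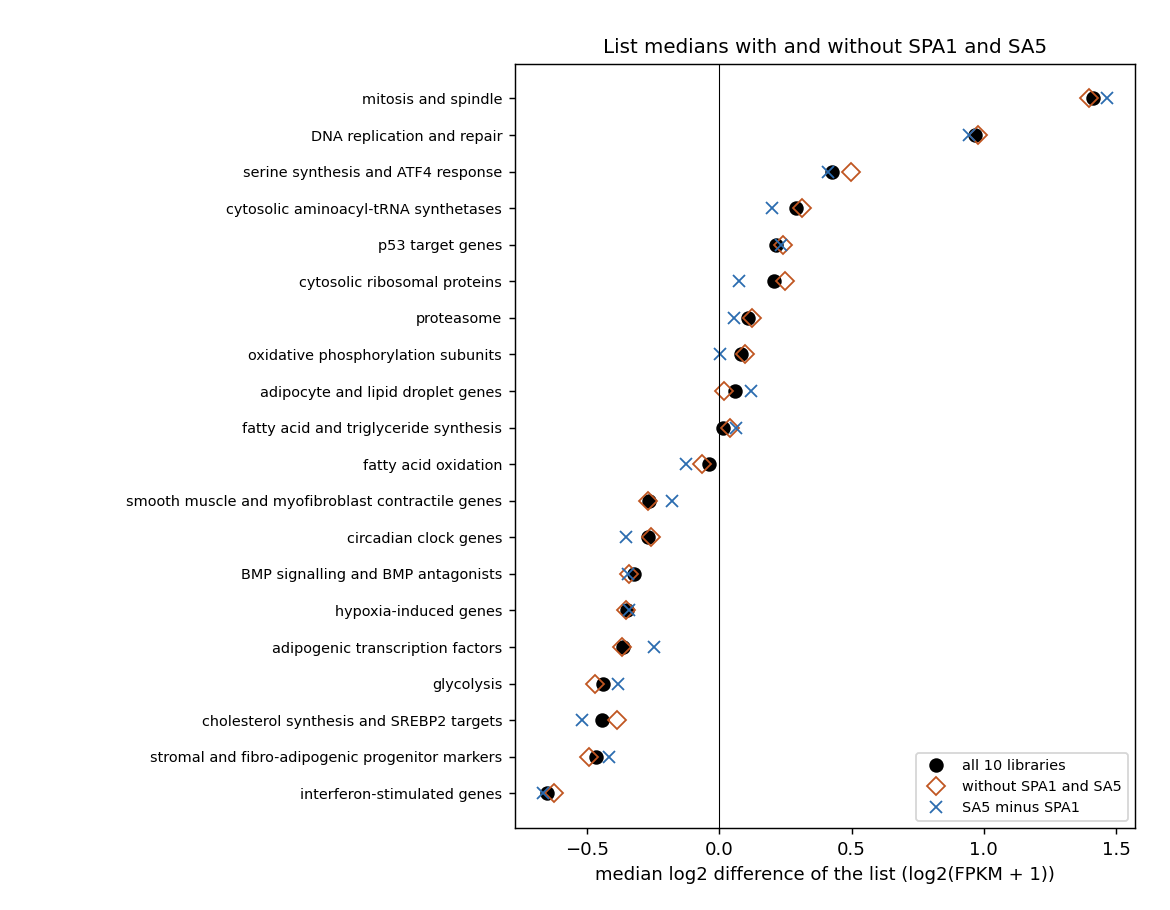
Median log2 difference of 20 gene lists on the log2(FPKM + 1) scale over all 10 libraries (black), over the 8 libraries without SPA1 and SA5 (open diamonds) and in SA5 minus SPA1 alone (crosses). The black points and diamonds lie close together in every list, for example −0.44 and −0.47 for glycolysis, and the crosses of ribosomal proteins (0.07) and oxidative phosphorylation (0.00) lie nearer to 0.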

How the data were processed

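RNA was sequenced from strand-marked libraries of 20 cultures, 10 of them analysed here in depth. Per the labels, the submitters' processing notes name HISAT2 2.0.4, StringTie 1.3.1 and GATK 2.6-5. The deposited FPKM values were made by the authors per transcript, on the goat ARS1 build, in tables of mRNA, annotated lncRNA and newly assembled lncRNA transcripts. No read counts per gene were used, so no counting interval can be given, although the study lists the mapped reads of each library. The 43766 mRNA transcripts were summed to 20587 gene symbols, and all per-sample columns were used (0 left out). Of 20593 gene identifiers, 20559 matched the RefSeq ARS1.2 table, which was used for names and gene order only, since its build differs.

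Features that averaged 1 FPKM or more in the subcutaneous libraries were tested on log2(FPKM + 1) by limma 3.58.1 with a variance trend (R 4.3.3), with Benjamini-Hochberg adjustment over 12744 genes and lncRNAs together. The difference between cell types was the interaction in a fit of all 20 libraries, adjusted over genes. On simulated data for SA against SPA over 12744 features, 200 changed features were spread over log2 changes of 0.5, 1 and 2. Of those at 0.5, 94.0% were called, and of those at 1, 98.5%, with 10 false calls in all. Errors were drawn independently, and far fewer features changed than were called in the real data. The simulation therefore does not give the error rate of the real test. The labels do not tie replicates to single goats, so p-values measure the spread between these cultures.

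The libraries and the 62 gene lists were chosen with earlier results of these data known, and lists are described by counts and medians without a test. Of 1966 list entries, 1813 distinct genes had values and 1453 were tested. Named genes were the 15 largest rises and falls outside the cell cycle lists among called genes whose groups did not overlap, key members and the 6 largest called changes of each list described in detail, the 4 largest lncRNA changes each way, and cell type markers. Some genes that meet this rule are not reported here. The alternatives were another pseudocount (0.1), a lower filter (0.1 FPKM) or none, 3 other scalings, a replicate block, all groups in the fit, no variance trend, 1 transcript per gene, the read-filter batch as a term, and leaving out libraries.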

Additional observations from a re-analysis of the deposited data

Results flagged for a closer look

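Among 176 groups of 5 libraries examined (68 genes and 20 list means, in each stage), 8 had a highest or lowest library far from the other 4, where chance alone marks about 1 in 20. They were SPA1 for CD36 (0.12 FPKM, high), SLC7A11 (39.5 FPKM, high), CRABP1 (2.05 FPKM, low) and HK2 (11.5 FPKM, low), SA5 for SLC16A3 (16.5 FPKM, high) and EGR1 (0.62 FPKM, low), SA1 for CPT1A (35.7 FPKM, high), and SPA2 for the mean log2(FPKM + 1) of p53 target genes (3.74). SPA1 and SA5, the libraries of the other read-filter batch, account for 6 of the 8, and the part of the batch in these values was not tested further; the direction and call of SLC7A11, CRABP1, HK2, SLC16A3 and EGR1 held without both libraries.

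Of 63 genes chosen from those described above, 52 changed differently in subcutaneous and intramuscular cells by the interaction test, which passed for 54.5% of all genes tested. The 63 are a chosen set, so their count is not a rate for genes at large. Mapped share fell further in the intramuscular arm, as given above. The values here are the subcutaneous minus the intramuscular log2 fold change. The more positive changes in subcutaneous cells were SPOCK1 (2.90), CTH (2.34), PSAT1 (2.01), PSPH (1.95), COL11A1 (1.76), CRABP1 (1.63), PHGDH (1.57), DHRS3 (1.5), MAP28 (1.40), ASNS (1.34), COL8A1 (1.12), FABP5 (1.04), ACTA2 (1.04), SLC7A11 (0.99), TRIB3 (0.91), MDM2 (0.91), SQLE (0.58), SPARC (0.37), CEBPA (0.37) and ATF4 (0.32).

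The more negative changes in metabolic and hypoxia genes were STC1 (−2.64), SLC16A3 (−1.76), BNIP3 (−1.73), VEGFA (−1.49), PGK1 (−1.20), PDK4 (−1.13), PLIN2 (−1.11), PFKP (−1.10), HIF1A (−0.95), HK2 (−0.74), ALDH2 (−0.73), ANGPTL4 (−0.70), SCD (−0.69) and PKM (−0.15). Those in stromal, signalling and immune genes were S100A4 (−2.47), TGFBI (−1.61), PTGS2 (−1.53), THY1 (−1.19), ISG15 (−1.05), DBP (−1.0), CDKN1A (−0.95), IGFBP5 (−0.93), VIM (−0.78), ID1 (−0.68), GREM1 (−0.64), EGR1 (−0.56), ARNTL (−0.53), SMAD6 (−0.37), PDGFRA (−0.34), IRF9 (−0.34), IGF1 (−0.31) and RARB (−0.26).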

How the results depend on the processing

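The gene counts stayed within 1.5 times of those reported under all alternatives, and leaving out 1 library gave 2585 to 2839 genes higher and 2614 to 2836 lower in SA, 408 to 504 lncRNAs higher and 103 to 121 lower. Quantile normalization gave 2488 genes up and 3512 down. For lncRNAs the expression filter mattered: 1064 rose and 308 fell at a mean of at least 0.1 FPKM, and 916 and 268 with no filter, since more transcripts were tested. A pseudocount of 0.1 raised the genes lower by at least 2-fold to 131. Ribosomal proteins called higher dropped to 37 under quantile normalization, and proteasome subunits to 10 under it and to 10 with equal mRNA sums. The alternatives were run for 20 of the 62 lists, with members counted in 1 direction each, and their other counts stayed within 1.5 times. Of the other lists with at least 8 members tested, re-examined only without SPA1 and SA5 together, basement membrane and other collagens called lower went from 3 to 5. Among the 20 lists the medians that changed sign were near 0: adipocyte and lipid droplet genes came to −0.00362 with equal mRNA sums and spanned −0.0204 to 0.0721 when 1 library was left out, and fatty acid and triglyceride synthesis came to −0.00613, −0.0189 and −0.0540 under upper-quartile scaling, quantile normalization and equal mRNA sums and spanned −0.0103 to 0.0476 when 1 library was left out; the cause was not tested. Of 106 single genes followed through 22 alternatives, no log2 fold change reversed, 32 values of COL1A2, BMP4 and ASNS lost their call, and ATF4 gained one. The filters, the replicate block, the fit of all groups, the fit without a variance trend and the batch term cannot alter a fold change. Many of the genes were also picked for groups that did not overlap. The lack of reversals was thus largely fixed in advance.

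The replicate numbers shared by the labels did not pair the libraries: the deviations of same-numbered SA and SPA libraries had correlations of −0.14, 0.13, −0.06, 0.05 and 0.05, and no SA library correlated best with its own number. With the replicate number as a block, 2653 genes rose and 2660 fell, 482 and 111 lncRNAs did so, and 5952 genes differed between the cell types. Without read counts per gene, low values, such as those of PPARG, CD36 and LPL, carry a counting error that cannot be given.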
